A study of Mus musculus with 4 samples.

Results

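The 32 genes described here encode the granule proteins of neutrophils and the effectors, receptors and surface antigens that go with them. They were chosen by gene symbol, and all 32 were found among the 16613 symbols of the deposited files. RNA had been sequenced from bone marrow cells carrying GFP, taken from mice that received B220+ marrow cells after transduction with N-myc. The labels call them B-ALL cells induced by N-myc, B-ALL being acute lymphoblastic leukaemia of B-cell precursors, and give the strain as C57BL/6. The transduced donor cells were Anp32b+/+ (wild type, 2 libraries) or Anp32b-/- (knockout, 2 libraries), and N-myc was common to both genotypes. The sources used here do not give the age or sex of the mice, the conditioning of the recipients or the promoter behind N-myc. Nothing says that libraries of a genotype came from separate mice, so the p-values rest on a spread between samples that may be technical.

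Neutrophils make their granules in sequence while they mature. Primary (azurophil) granules form in promyelocytes and carry myeloperoxidase and serine proteases. Secondary (specific) granules follow in myelocytes and carry lactoferrin and antimicrobial peptides, and tertiary (gelatinase) granules come later still. PU.1 and the C/EBP factors are known regulators of this program, and C/EBP-epsilon is needed for the secondary granule genes. Leukaemic B cell precursors are not usually described as making such granules. The cells were not a neutrophil population: per kilobase of transcript, the B cell receptor component Cd79a stood at 1299 CPM (read counts scaled for library size) in wild type and 1304 in knockout. The most abundant neutrophil gene, S100a9, stood at 209 and 37.9 on the same scale.

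The libraries held between 19581600 and 19758700 estimated reads. Anp32b itself stood at 774 and 853 CPM in the wild-type libraries and at 74.4 and 70.6 CPM in the knockout libraries. Spi1, which encodes PU.1, did not pass the test (log2 fold change 0.02, edgeR adjusted p = 0.833), and its sign changed with the scaling and with the library left out. Differences are given as log2 fold changes, knockout minus wild type, with the standard error (SE). They come from edgeR's quasi-likelihood test across 12123 genes, and a gene was called at a Benjamini-Hochberg adjusted p under 0.05.

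The stretch before the transcription start is shown for 3 primary and 3 secondary granule genes, as examples that do not stand for each class. Each sequence holds the 250 bases before the RefSeq start (GRCm38.p6), 5′ to 3′ on the strand of the gene. Capitals mark matches to a PU.1-like core, GAGGAA as read on either strand, or to a C/EBP-like core, TTGCNNAA as read on either strand. The first 3 are primary granule genes: Elane (neutrophil elastase) at chr10:79886062-79886311, plus strand, Prtn3 (proteinase 3) at chr10:79879417-79879666, plus strand, and Mpo (myeloperoxidase) at chr11:87793534-87793783, plus strand.
Elane: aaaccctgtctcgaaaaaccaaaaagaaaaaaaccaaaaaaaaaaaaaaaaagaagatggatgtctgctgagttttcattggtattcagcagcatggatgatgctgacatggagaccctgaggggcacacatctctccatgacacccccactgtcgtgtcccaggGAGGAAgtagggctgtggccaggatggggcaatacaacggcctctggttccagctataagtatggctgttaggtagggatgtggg
Prtn3: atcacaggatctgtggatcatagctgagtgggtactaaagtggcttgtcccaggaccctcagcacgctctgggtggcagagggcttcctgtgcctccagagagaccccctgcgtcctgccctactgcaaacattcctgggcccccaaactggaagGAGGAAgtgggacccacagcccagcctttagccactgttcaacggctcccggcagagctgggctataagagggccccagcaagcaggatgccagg
Mpo: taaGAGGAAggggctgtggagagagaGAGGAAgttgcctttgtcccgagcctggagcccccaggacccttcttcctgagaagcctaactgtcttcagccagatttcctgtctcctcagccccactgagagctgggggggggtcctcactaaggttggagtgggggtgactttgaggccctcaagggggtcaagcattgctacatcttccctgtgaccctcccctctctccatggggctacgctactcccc
The next 3 are secondary granule genes: Ltf (lactoferrin) at chr9:111019042-111019291, plus strand, Ngp (neutrophilic granule protein) at chr9:110419558-110419807, plus strand, and Lcn2 (lipocalin-2) at chr2:32387740-32387989, minus strand.
Ltf: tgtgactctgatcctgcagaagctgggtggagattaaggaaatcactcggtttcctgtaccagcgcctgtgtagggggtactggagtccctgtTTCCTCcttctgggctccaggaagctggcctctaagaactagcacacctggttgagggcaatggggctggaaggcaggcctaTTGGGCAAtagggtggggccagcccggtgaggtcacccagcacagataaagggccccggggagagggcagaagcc
Ngp: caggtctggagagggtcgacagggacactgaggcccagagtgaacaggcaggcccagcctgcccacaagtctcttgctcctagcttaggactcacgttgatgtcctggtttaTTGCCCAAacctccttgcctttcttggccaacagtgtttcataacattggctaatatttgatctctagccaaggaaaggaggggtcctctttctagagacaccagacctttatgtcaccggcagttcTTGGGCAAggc
Lcn2: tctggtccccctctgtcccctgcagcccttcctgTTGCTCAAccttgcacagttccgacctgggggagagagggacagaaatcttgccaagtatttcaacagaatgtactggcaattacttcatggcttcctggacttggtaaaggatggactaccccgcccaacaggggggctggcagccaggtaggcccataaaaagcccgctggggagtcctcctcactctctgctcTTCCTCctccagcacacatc

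In Elane and Prtn3, neighbours on chromosome 10 with a gap of 3.1 kb, the PU.1-like match began at -85 and -95, where -1 is the last base before the start. Mpo had PU.1-like matches at -247 and -224. The capitals in Ngp are C/EBP-like matches at -138 and -11. Ltf held a PU.1-like match at -157 and a C/EBP-like match at -75, and Lcn2 held them at -20 and -216. Over the table, 28 of the 32 genes had a promoter entry, and Mmp9, Hp, Cebpe and Trem3 had none. A PU.1-like match lay before 20 of these 28 (71.4%), against 25.9% of all 27025 genes of the table and 25.7% of the tested genes with an entry. It lay before 5 of 5 primary granule genes, 4 of 7 secondary granule genes, 1 of 2 tertiary granule genes, 3 of 7 effector genes and 7 of 7 surface genes. A C/EBP-like match lay before 10 of the 28 (35.7%), against 10.8% of all genes and 9.25% of the tested genes. By class these were 0 of 5 primary (with 5 genes, near the share over all genes), 4 of 7 secondary, 1 of 2 tertiary, 4 of 7 effector and 1 of 7 surface genes. Camp, Chil3, Lgals3 and Padi4 held neither. The 3 secondary granule genes shown all held a C/EBP-like match, while Camp, Chil3 and Pglyrp1, which are not shown, held none. A relation between matches and the size of the fall was not tested. A match is a run of letters and not a measured binding site, and genes with several starts were counted once if any start had a match.

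**Figure D1:**
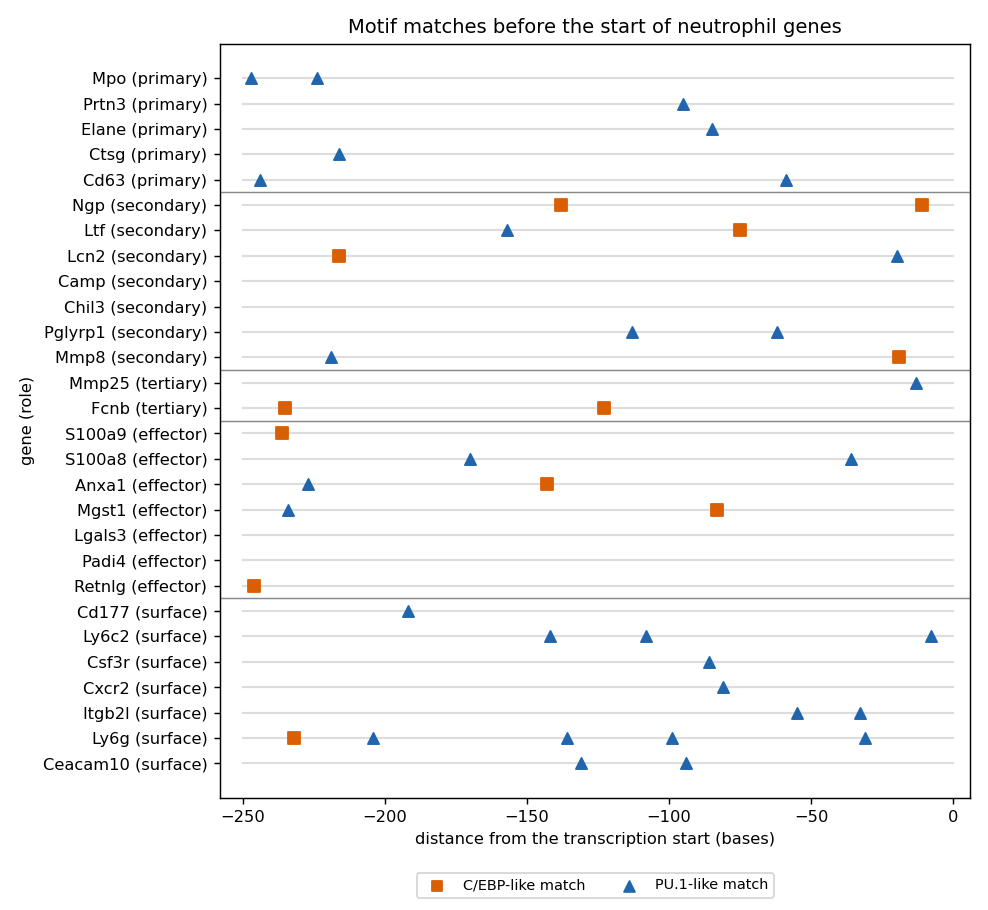
Matches to the PU.1-like core (triangles) and the C/EBP-like core (squares) in the 250 bases before the transcription start of 28 neutrophil genes, by distance from the start in bases with genes grouped by role and matches placed relative to each start where a gene has several. All 5 primary granule genes hold a triangle, as do 25.9% of all genes, and 0 of the 5 hold a square, a count near the share of 10.8% over all genes.

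Of the 32 genes, 29 fell in the knockout libraries, none rose and 3 did not pass the test, where 12.6% of all tested genes were called lower and 10.9% higher. The median log2 fold change was -1.84, against 0.0021 over all tested genes. In all 32 genes both knockout libraries lay below both wild-type libraries, a pattern seen in 30.5% of the tested genes. A fall of at least 2-fold was called for 25 genes (background 3.9%) and one of at least 4-fold for 12 (background 1.25%). All 32 passed the filter on low counts, but Mmp25, Fcnb, Ly6g, Ceacam10, Trem3 and Cebpe passed through the wild-type libraries alone, so that a difference was built into their selection. The 25 genes called at 2-fold include all of these, and the 12 called at 4-fold include Ceacam10 and Trem3. Of the 26 genes that also passed in both knockout libraries, 23 fell. Fewer were called in some other fits, along with fewer genes in all: 23 of the 32 fell with DESeq2 (background 6.99% lower and 6.01% higher) and 23 with no filter (4.49% and 3.3%). Leaving out knockout replicate 1 left 24 (background 6.94% lower and 4.71% higher), and leaving out knockout replicate 2 left 22 (4.63% and 2.97%). Upper-quartile scaling called 29 (14.6% lower and 8.57% higher), and none of the 32 rose in any of these fits. Together the 32 genes took 0.0803% and 0.0807% of the scaled reads in wild type and 0.0204% and 0.0203% in knockout, 3.96-fold less. In bulk RNA, fewer cells of a type and less RNA per cell cannot be told apart.

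**Figure D2:**
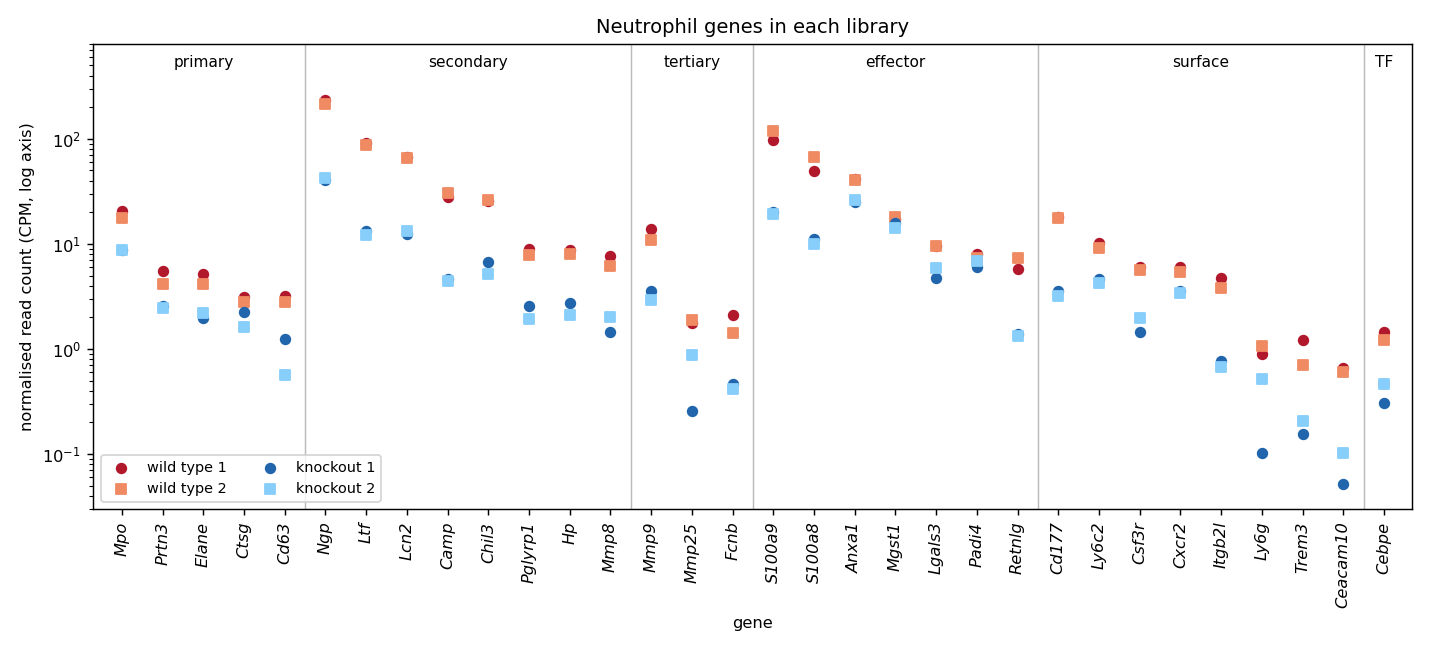
Normalised read count (CPM, log axis) of the 32 neutrophil genes in each of the 4 libraries, grouped by role (TF, transcription factor), with wild type in reds and knockout in blues. In every gene both blue points lie below both red points, with the narrowest gaps in Padi4 and Mgst1.

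Other genes moved with the genotype beside these. All 4 Y-linked genes fell (median -2.08), their summed level being 156 and 173 CPM in wild type and 42.5 and 41.7 CPM in knockout, 3.91-fold less. Among 8 markers of NK cells, 5 were tested and 2 fell (median -1.73), with sums of 6.43 and 7.61 against 1.90 and 2.27 CPM. Klrb1c, which encodes NK1.1, was at 2.41 and 2.82 CPM against 0.103 and 0.465 CPM (-3.18, SE 0.43, edgeR adjusted p = 7.55e-05). Both NK markers that fell, Klrb1c and Nkg7, passed the filter on low counts through the wild-type libraries alone. The same holds for Klrk1 and Gzmb, which were not called. A difference was thus built into their selection. Among 15 markers of eosinophils, basophils and mast cells, 6 were tested and 2 fell, with sums of 10.6 and 12.0 against 7.85 and 6.25 CPM. Of those that fell, Epx also passed the filter through the wild-type libraries alone. T cell markers (5 of 10 tested, 2 lower, median -0.39) summed to 23.9 and 26.8 against 17.0 and 18.7 CPM, and Cd4 among them fell (-1.61, SE 0.27, adjusted p = 4.65e-04). Markers of plasmacytoid dendritic cells (4 of 5 tested, 1 lower) had a median of -1.20. Siglech, their lectin marker, was at 2.36 and 2.17 CPM against 0.719 and 1.03 CPM (-1.36, SE 0.30, adjusted p = 0.00412; adjusted p = 0.0691 with knockout replicate 1 left out). The sum of that list, 36.0 in each wild-type library against 27.3 and 32.2 CPM, was mostly Bst2, which many cells make and which was not called (-0.18, SE 0.08). Monocyte and macrophage markers (15 of 18 tested, 4 lower, 1 higher) summed to 97.8 and 94.8 against 85.0 and 82.8 CPM. Fn1 was the 1 that rose (2.45, SE 0.18, edgeR adjusted p = 2.45e-07). Of this sum Fn1 made up 1.71 and 1.56 against 8.26 and 9.66 CPM. The 4 markers of this list that fell, Mpeg1 and Csf1r among them, had log2 fold changes from -0.75 to -1.15. Erythroid markers (13 of 16 tested, 1 lower, 1 higher) had a median of 0.24, and 4 of the 13 values were negative. Their sum was 551.7 and 592 against 442 and 450.0 CPM. Of this sum Car2, the carbonic anhydrase gene that fell, made up 334 and 356 against 197 and 200.03 CPM. Car1 rose on 7 to 27 reads a library (1.63, SE 0.45), but was not called with DESeq2 (adjusted p = 0.147). The B cell markers, 11 of 11 tested with 5 lower and 2 higher, summed to 7079 and 7024 against 6539 and 6584 CPM. Those that rose were Ms4a1 (1.91, SE 0.07, edgeR adjusted p = 1.09e-10) and Cd22 (1.00, SE 0.06, edgeR adjusted p = 1.57e-08). Of the 5 B cell markers that fell, Ebf1 had the lowest value (-0.52, SE 0.05, edgeR adjusted p = 7.86e-06). No gene of the deposited files was at 0 in all 4 libraries, so by construction no marker found there was either. The NK marker Ncr1 and the T cell marker Cd3e had at most 4 reads in any library. The part of these differences in the fall of the neutrophil genes was not tested.

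Of the 5 primary granule genes 4 fell, with a median of -1.14 over the class and a summed level that was 2.15-fold lower in knockout. Mpo, whose product makes hypochlorous acid, was at 20.8 and 17.8 CPM in wild type and at 8.73 and 8.78 CPM in knockout (log2 fold change -1.14, SE 0.11, edgeR adjusted p = 2.80e-06). Elane, the elastase gene, was at 5.12 and 4.19 CPM against 1.95 and 2.22 CPM (-1.16, SE 0.21, adjusted p = 9.65e-04). Both genes showed knockout pairs that lay close together and wild-type pairs that lay further apart. Prtn3, which encodes the elastase-like proteinase 3, was at 5.52 and 4.19 CPM against 2.57 and 2.48 CPM (-0.94, SE 0.20, adjusted p = 0.00368). Leaving out knockout replicate 2 (adjusted p = 0.0914) or the filter on low counts (adjusted p = 0.0632) ended this call. Ctsg, the cathepsin G gene, was at 3.11 and 2.82 CPM against 2.26 and 1.60 CPM and did not pass the test (-0.62, 95% interval -1.14 to -0.10, adjusted p = 0.0819). Cd63, a membrane protein of azurophil granules that many other cells also make in lysosomes, was at 3.16 and 2.77 CPM against 1.23 and 0.568 CPM (-1.71, SE 0.31, adjusted p = 0.00115). Its knockout libraries lay apart, and the call ended when knockout replicate 2 (-1.26, adjusted p = 0.0550) or the filter (adjusted p = 0.0617) was left out. Per kilobase, Mpo was the most abundant of the class at 7.01 CPM in wild type and 3.18 in knockout. The serine proteases Elane and Prtn3 were close to each other there, at 4.73 and 4.74 in wild type and at 2.12 and 2.46 in knockout.

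All 8 secondary granule genes fell, with a median of -2.24 and a summed level that was 5.47-fold lower. Ltf, whose product lactoferrin binds iron, was at 90.4 and 86.6 CPM in wild type and at 13.1 and 12.1 CPM in knockout, 7.0-fold lower (-2.81, SE 0.07, edgeR adjusted p = 6.89e-12). Camp, which encodes the antimicrobial cathelicidin, was at 28.2 and 30.5 CPM against 4.62 and 4.39 CPM, 6.51-fold lower (-2.70, SE 0.11, adjusted p = 3.75e-10). Ngp, which encodes a cystatin-like granule protein, was at 233 and 217 CPM against 40.3 and 42.8 CPM, 5.42-fold lower (-2.44, SE 0.06, adjusted p = 6.50e-12). These 3 genes lie on chromosome 9, with gaps of 570.4 kb from Camp to Ngp and 596.3 kb from Ngp to Ltf. Lcn2, whose product captures bacterial siderophores, was at 67.0 and 66.3 CPM against 12.5 and 13.2 CPM (-2.37, SE 0.07). The spread within each pair was small beside the distance between genotypes in all 4. Chil3, a chitinase-like protein gene, was at 25.8 and 26.1 CPM against 6.78 and 5.16 CPM (-2.12, SE 0.11), and its near relative Chil4 had at most 1.22 reads in any library. Mmp8, the neutrophil collagenase gene, was at 7.63 and 6.20 CPM against 1.44 and 2.01 CPM (-2.0, SE 0.21). The smallest falls of the class were those of Pglyrp1 and Hp. Pglyrp1, a peptidoglycan-binding protein gene, was at 8.94 and 7.77 CPM against 2.57 and 1.91 CPM (-1.90, SE 0.18). Hp, the haptoglobin gene, was at 8.68 and 7.97 CPM against 2.72 and 2.12 CPM (-1.78, SE 0.17). Per kilobase, Ngp was the most abundant of the class at 184 CPM in wild type and 34.0 in knockout, and Mmp8 the least at 2.85 and 0.712.

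The 3 tertiary granule genes fell, with a median of -1.92, which is the value of Mmp9. Fcnb and Mmp25 passed the filter on low counts through the wild-type libraries alone, so the class is not ranked against the other classes. Mmp9, which encodes gelatinase B, was at 13.9 and 10.9 CPM in wild type and at 3.59 and 2.94 CPM in knockout (-1.92, SE 0.16, edgeR adjusted p = 9.11e-07). Fcnb, a ficolin gene of the lectin complement pathway, was at 2.11 and 1.41 CPM against 0.462 and 0.413 CPM (-1.99, SE 0.38, adjusted p = 0.0016). Leaving out knockout replicate 2 ended the call of Fcnb (adjusted p = 0.0631). Mmp25, which encodes a membrane-anchored metalloproteinase, was at 1.76 and 1.87 CPM against 0.257 and 0.878 CPM (-1.67, SE 0.41, adjusted p = 0.00909). Its knockout libraries lay far apart, and with knockout replicate 1 left out the value was -1.04 (adjusted p = 0.128). Mmp25 was also not called with DESeq2 (adjusted p = 0.0540) or with no filter (adjusted p = 0.132).

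The roles took different shares of the neutrophil gene reads in the 2 genotypes. Primary granule genes made up 4.69% and 3.94% of the summed level of the 32 genes in wild type and 8.21% and 7.73% in knockout. Secondary granule genes made up 58.5% and 55.5% in wild type and 41.3% in each knockout library. The effector share, which includes genes made by many cell types such as Anxa1, was 28.5% and 33.2% in wild type and 41.2% and 41.5% in knockout. In percentage points this gain was larger than that of the primary granule genes, but relative to the wild-type share it was smaller. The surface share was also higher in knockout, at 7.03% and 7.09% against 5.95% and 5.43% in wild type. The share of tertiary granule genes overlapped between genotypes, at 2.21% and 1.76% in wild type against 2.12% and 2.09% in knockout. Between the granule classes alone, the ratio of the summed primary level to the summed secondary level was 0.0803 and 0.0709 in wild type and 0.199 and 0.187 in knockout. The ratio of Mpo reads to Ltf reads was 0.230 and 0.205 in wild type and 0.664 and 0.723 in knockout. That of Elane to Camp was 0.181 and 0.137 against 0.422 and 0.506. The 95% intervals of Mpo, Elane, Prtn3 and Ctsg reached down to -1.60 at most, and those of Ltf, Camp, Ngp, Lcn2 and Chil3 reached up to -1.87 at most. Those of Cd63, Mmp8, Pglyrp1 and Hp overlapped with the other class. The difference between classes was not tested.

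**Figure D3:**
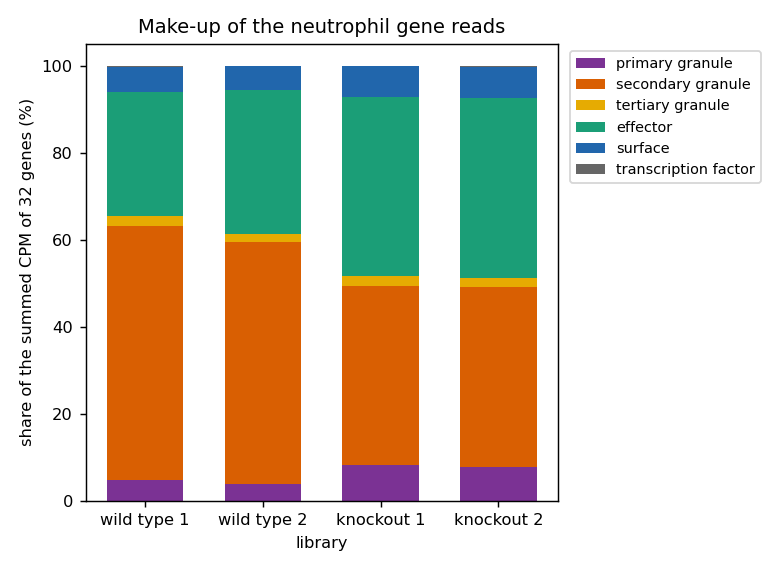
Share of the summed CPM of the 32 neutrophil genes taken by each role (stacked bars, percent, scale from 0) in each library. The secondary granule share is 58.5% and 55.5% in wild type and 41.3% in each knockout library. The effector, primary granule and surface shares are higher in both knockout libraries.

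Among the cytosolic and secreted effectors, 5 of 7 genes fell, in 2 separate ranges. S100a9 and S100a8 encode the subunits of calprotectin, the main cytosolic protein of neutrophils, and lie 22.6 kb apart on chromosome 3. S100a9 was at 97.8 and 119 CPM in wild type and at 20.02 and 19.3 CPM in knockout (-2.46, SE 0.09, edgeR adjusted p = 1.95e-10). S100a8 was at 49.1 and 66.5 CPM against 11.04 and 10.1 CPM (-2.45, SE 0.13, adjusted p = 9.23e-09). The ratio of S100a8 to S100a9 reads stayed between 0.502 and 0.559 across the 4 libraries, with overlap of the genotypes. Both genes were higher in wild-type replicate 2 than in replicate 1, whereas Ngp and Ltf were lower there. Retnlg, a resistin-like gene, was at 5.72 and 7.26 CPM against 1.39 and 1.34 CPM (-2.24, SE 0.21).

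The other effectors differed by smaller amounts. Anxa1, whose product annexin A1 limits neutrophil recruitment, was at 41.8 and 40.4 CPM in wild type and at 24.9 and 26.4 CPM in knockout (-0.68, SE 0.07, edgeR adjusted p = 7.86e-06). Lgals3, which encodes galectin-3, was at 9.49 and 9.48 CPM against 4.77 and 5.94 CPM (-0.82, SE 0.14, adjusted p = 5.93e-04). Both are made by many cell types besides neutrophils. Padi4, the peptidylarginine deiminase that citrullinates histones, was at 7.93 and 7.31 CPM against 6.06 and 6.87 CPM and did not pass the test (-0.24, 95% interval -0.53 to 0.05, adjusted p = 0.237). Mgst1, a microsomal glutathione transferase gene, was at 17.2 and 18.0 CPM against 15.8 and 14.1 CPM and did not pass either (-0.23, 95% interval -0.43 to -0.03, adjusted p = 0.0987). The intervals of Padi4 and Mgst1 exclude falls as large as those of the S100 genes.

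All 8 surface genes fell, over a range from -0.70 to -2.93, but Ly6g, Ceacam10 and Trem3 passed the filter through the wild-type libraries alone. Cd177, a neutrophil surface antigen gene, was at 18.2 and 17.5 CPM in wild type and at 3.59 and 3.20 CPM in knockout (-2.39, SE 0.12, edgeR adjusted p = 7.13e-09). Itgb2l, a beta integrin gene related to Itgb2, was at 4.72 and 3.78 CPM against 0.770 and 0.671 CPM (-2.55, SE 0.27, adjusted p = 8.17e-06). Itgb2 itself, the shared beta chain of leukocyte integrins, fell by a smaller amount (-0.22, SE 0.07, adjusted p = 0.0286), a call that ended with DESeq2, with no filter and when wild-type replicate 1 or either knockout replicate was left out (adjusted p from 0.0755 to 0.242). Csf3r, the receptor for G-CSF, was at 5.97 and 5.60 CPM against 1.44 and 1.96 CPM (-1.76, SE 0.21, adjusted p = 1.94e-05).

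Ly6c2, a surface antigen of myeloid and some lymphoid cells, was at 10.1 and 9.08 CPM in wild type and at 4.62 and 4.29 CPM in knockout (-1.11, SE 0.14, edgeR adjusted p = 4.07e-05). Its counts were not whole numbers, and its near copy Ly6c1 had between 9.55 and 14.5 reads a library, so the division between both copies is uncertain. Cxcr2, the receptor through which neutrophils leave the marrow, was at 5.97 and 5.45 CPM against 3.59 and 3.41 CPM (-0.70, SE 0.17, adjusted p = 0.00681). Cxcr2 did not pass with DESeq2 (adjusted p = 0.0895) or when knockout replicate 2 was left out (adjusted p = 0.102). Its interval, -1.06 to -0.35, did not overlap with that of Csf3r, -2.21 to -1.32.

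The remaining surface genes rest on few reads. Ly6g, the antigen used to stain mouse neutrophils, had 18 and 21 reads in wild type and 2 and 10 in knockout (-1.65, SE 0.53, edgeR adjusted p = 0.0361). Its read ratio was 3.18 with a 95% counting interval of 1.63 to 6.66. Ly6g did not pass with DESeq2 (adjusted p = 0.211), with no filter (adjusted p = 0.212), or when wild-type replicate 2 (adjusted p = 0.104) or knockout replicate 1 (-0.91, adjusted p = 0.325) was left out. Trem3, a myeloid activating receptor gene, had 24 and 14 reads against 3 and 4, which is 5.31-fold (2.34 to 14.1). Ceacam10, a secreted member of the CEACAM family that lies 16.8 kb from Cd177 on chromosome 7, had 25 reads over both wild-type libraries and 3 over both knockout libraries after rounding, 8.14-fold apart (2.48 to 42.1). Both were called (adjusted p = 0.00531 and 0.0055), and both calls ended with DESeq2 or when either knockout replicate was left out (adjusted p from 0.0592 to 0.0886), that of Trem3 also with no filter (adjusted p = 0.0686). The relatives Trem1 (-1.87, SE 0.16) and Ceacam1 (0.42, SE 0.09) went in opposite directions, the call of Ceacam1 ending when knockout replicate 1 (adjusted p = 0.0856) or 2 (adjusted p = 0.0597) or the filter (adjusted p = 0.121) was left out. Counting intervals cover counting error only.

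Cebpe, the transcription factor of the secondary granule genes, had 29 and 24 reads in wild type and 6 and 9 in knockout (-1.77, SE 0.40, edgeR adjusted p = 0.00516). Cebpe did not pass with DESeq2 (adjusted p = 0.0706), with no filter (adjusted p = 0.0507), or when knockout replicate 1 (adjusted p = 0.0808) or 2 (adjusted p = 0.0554) was left out.

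**Figure D4:**
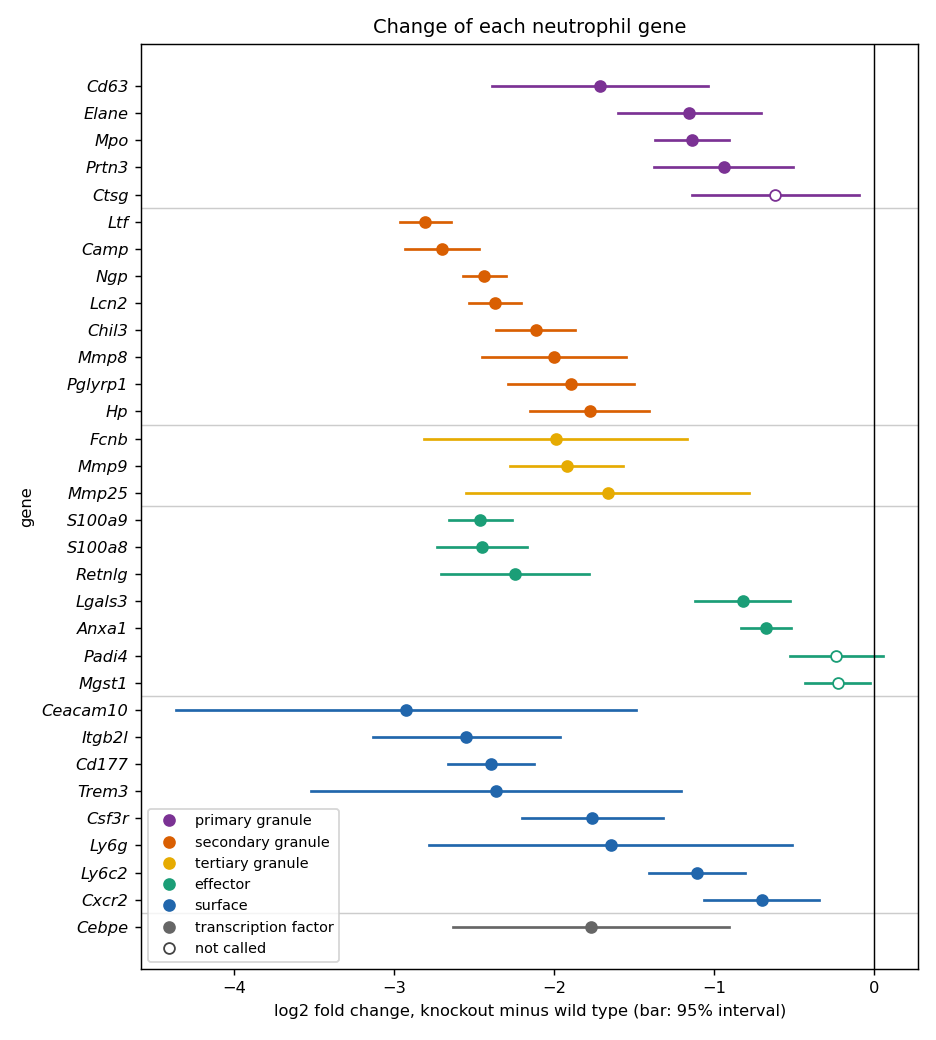
Log2 fold change (knockout minus wild type) of each neutrophil gene with its 95% interval from edgeR, grouped and coloured by role, with called genes as filled and others as open points. The 5 secondary granule genes from Ltf to Chil3 lie apart from Mpo, Elane, Prtn3 and Ctsg, with no overlap of intervals. The intervals of the primary granule gene Cd63 and the secondary granule genes Mmp8, Pglyrp1 and Hp overlap with the other class.

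A wider list of 71 granulocyte genes outside these 32 moved less uniformly. Of its 58 tested genes 30 fell and 6 rose, with a median of -0.53, where 12.6% of all tested genes were called lower and 10.9% higher. Of 28 tested receptors and cytokines of mature neutrophils, 18 fell and 1 rose (median -1.06). Itgam, the CD11b chain (-1.89, SE 0.17), and Trem1, an amplifier of inflammatory signalling, were among those that fell. So were Fpr2, Clec4e, Ccr1, Fcgr4, Ltb4r1, Mcemp1, Cd33 and Alox5, which passed the filter on low counts through the wild-type libraries alone. A difference was thus built into their selection, and also into that of Slpi, Nkg7 and Cebpd, which fell in the other lists. Of 7 tested secondary or tertiary granule and secreted proteins, 5 fell and none rose (median -1.11), such as Lrg1 (-1.79, SE 0.21) and Wfdc21 (-1.75, SE 0.31). Of 9 other genes of primary granules, 4 fell and 3 rose (median -0.31). Lyz2, the lysozyme gene, was among those that fell (-2.26, SE 0.08), and Srgn, a granule proteoglycan gene of many blood cells, rose (0.36, SE 0.05), though not when knockout replicate 2 was left out (adjusted p = 0.0543). Of the 6 NADPH oxidase genes, Cybb fell (-1.41, SE 0.08), Ncf4 rose (0.39, SE 0.06) and the rest were not called.

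Of 10 myeloid transcription factors, 3 fell and 1 rose (median 0.01). Gfi1, a repressor needed for granulocyte development and also active in lymphocytes, rose (0.41, SE 0.08, edgeR adjusted p = 0.00143). Cebpd, another C/EBP gene, fell (-1.73, SE 0.41, adjusted p = 0.00695), but did not pass with DESeq2 (adjusted p = 0.0970) or when knockout replicate 2 was left out (adjusted p = 0.116). Myb fell (-0.32, SE 0.06), but not when knockout replicate 1 (adjusted p = 0.0519) or 2 (adjusted p = 0.0700) was left out.

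**Figure D5:**
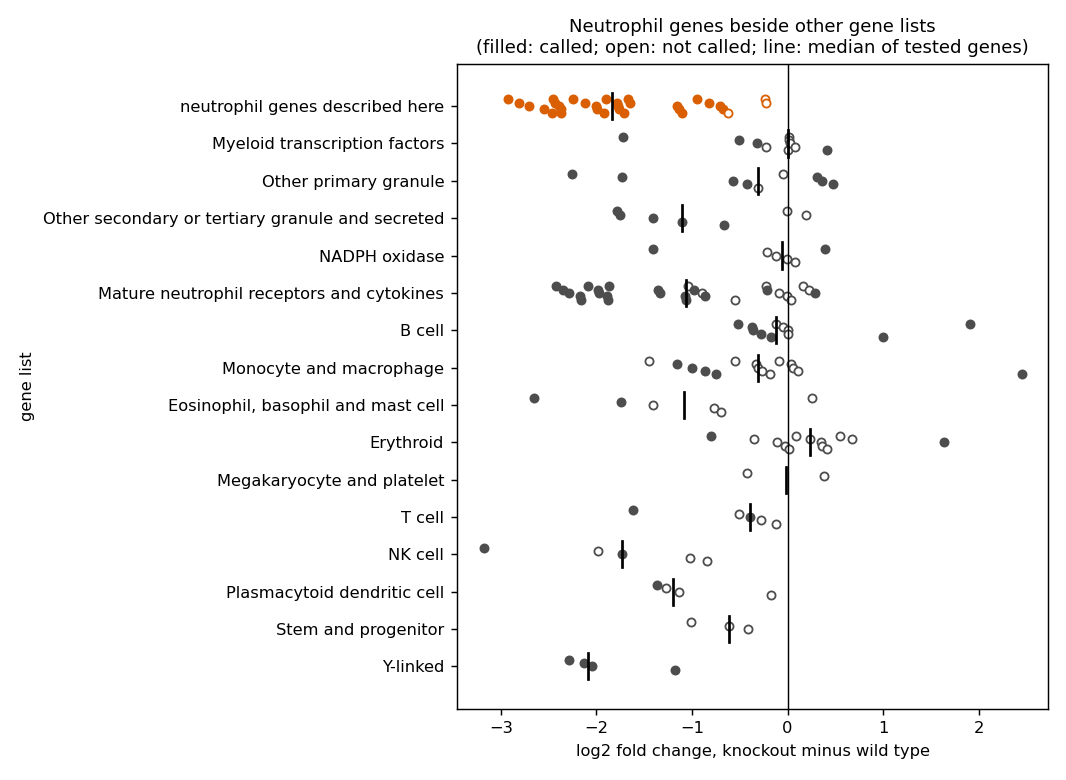
Log2 fold change (knockout minus wild type) of the tested genes of each list, with the 32 neutrophil genes on top, called genes filled, others open and a line at the median of the list. The medians are -1.84 for the 32 genes, -1.06 for receptors and cytokines of mature neutrophils, -0.31 for monocyte and macrophage markers and -2.08 for Y-linked genes.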

How the data were processed

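The deposited files hold estimated read counts (expected counts) per gene symbol, 1 file per library, and between 64.5% and 65.6% of a library's values were whole numbers (within 0.005). Per the submitters' processing notes, the tools were HISAT2 2.0.4 and DESeq2 1.4.5, and the genome build was GRCm38. No source used here gives the counting tool, annotation, strand or filters. Non-whole counts, as in 7 of the 32 genes (Chil3, Mmp25, Padi4, Ly6c2, Csf3r, Cxcr2 and Ceacam10), may hold reads shared between genes.

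Counts were rounded and tested with edgeR 4.0.16 (R 4.3.3): TMM scaling, filterByExpr (minimum count 10), quasi-likelihood test, no covariate. Of 16613 genes 4490 fell below the filter. Limits of 3 reads, which a count of 0 allows, equal 0.151 to 0.155 CPM and cover counting error only. Standard errors and 95% intervals come from the quasi-likelihood F. Levels per kilobase use the longest APPRIS principal transcript of GENCODE. Counts were simulated with the same dispersion for every gene, and 50 genes of at least 1 CPM were changed at each fold. Among 11986 tested genes this gave back 76% at 1.5-fold and 94% at 2-fold, and 5 of 171 calls were false. These rates do not cover genes under 1 CPM or genes with a larger spread. Alternatives were DESeq2 1.42.0, limma-voom (limma 3.58.1), other scalings and filters, a replicate block and leaving out each library.

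All 32 genes are named whatever their values. Of the other lists, up to 3 called genes with the smallest p were eligible, and Anp32b, Spi1 and near relatives were added, with Cd79a, Ncr1, Cd3e and Bst2 chosen after their values were seen. The genes and lists were chosen with earlier results of these data known. Protein sequences were not used here.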

Additional observations from a re-analysis of the deposited data

How the results depend on the processing

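Over 332 refits of single neutrophil genes under the alternatives, 307 kept their side of the threshold, 25 lost the call (in 9 genes), and none gained a call or changed sign. The count of neutrophil genes that fell was 23 with DESeq2, 29 with limma-voom, RLE or upper-quartile scaling, and 23 with no filter. With a filter of 10 CPM in 2 libraries only 12 of the genes were tested, and 11 fell (background 12.5% lower and 11.3% higher). Mpo, Camp, Chil3, Mmp9 and Cd177 passed that filter through the wild-type libraries alone, so that a difference was built into their selection. Leaving out 1 library gave 22 to 29. Such a fit takes the spread of the remaining library from the other genotype's pair. None rose in any of these fits. Over all genes, 847 fell and 729 rose with DESeq2, and 744 fell and 547 rose with no filter. Leaving out 1 library gave 579 to 1712 that fell and 372 to 1676 that rose. The summed level of the 32 genes changed by -1.99 (log2) as reported and by -2.02 with upper-quartile scaling. Spi1 changed sign to -0.0062 with upper-quartile scaling, -0.044 when wild-type replicate 2 was left out and -0.014 when knockout replicate 2 was, and leaving out wild-type replicate 1 gave 0.092. The cause was not tested.

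With the replicate number as a block, 29 neutrophil genes fell and none rose, and 1779 genes fell and 1644 rose over all. Deviations of same-numbered libraries correlated at 0.051 across genes, so the number is not taken to pair them. Depth limits Mmp25, Fcnb, Ly6g, Ceacam10, Trem3 and Cebpe, which had fewer than 10 reads in at least 1 knockout library.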
